A study of Homo sapiens with 6 samples.

Results

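Glycolysis, the pentose phosphate pathway and the TCA cycle are the 3 routes of central carbon metabolism whose enzyme genes are described here in SU-CCS-1 cells, an established line derived from clear cell sarcoma, whose hallmark is the fusion EWSR1::ATF1 (EA1). The members were the genes of the deposited counts with the symbol of an enzyme of these routes, 51 of 18118 genes in all, namely 20 of glycolysis, 6 of the pentose phosphate pathway and 25 of the TCA cycle and the steps that feed it. Polyadenylated RNA was sequenced from 6 libraries of this line, 2 transfected with a scramble control siRNA, 2 with the siRNA labelled EA1-1 (EA1 siRNA 1) and 2 with that labelled EA1-2 (EA1 siRNA 2), for 48 h with 5 pmol of siRNA per well. The comparison asks what the EA1 siRNAs do to these genes, in a single cell line whose control cells carry the fusion too. The labels list 2 EA1 siRNAs whereas the methods name 1, and they do not say whether replicates came from separate cultures, so p-values measure only the spread between these libraries, which may be technical.

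Glycolysis splits glucose into pyruvate in the cytosol, and hexokinase, phosphofructokinase and pyruvate kinase are its regulated steps. The pentose phosphate pathway branches off at glucose 6-phosphate and yields NADPH in its oxidative arm and ribose phosphate in its non-oxidative arm. Pyruvate enters mitochondria and is turned into acetyl-CoA by pyruvate dehydrogenase, which the PDK kinases switch off, and the TCA cycle oxidises the acetyl group. Many of these steps are served by isoenzymes from separate genes, and the hypoxia factor HIF1A and MYC are textbook activators of glycolytic genes.

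The counted reads summed to between 5942808 and 7599305 per library, so that 3 counts, taken as the detection floor, correspond to 0.395 to 0.505 CPM, or counts scaled to a common library size. The floor accounts for counting error alone. ATF1, the 3′ partner of the fusion, whose reads come from the fusion transcript and from the intact gene alike, stood at 82.2 and 87.4 CPM with the control siRNA, 21.2 and 20.3 CPM with EA1 siRNA 1, and 21.7 and 22.3 CPM with EA1 siRNA 2. All 4 knockdown libraries lay below both control libraries (log2FC −1.99 ± 0.10, adjusted p = 9.70e-08). EWSR1, the 5′ partner, stood at 198 and 233 CPM in control and between 195 and 221 CPM after knockdown, which overlap. It did not pass the edgeR test (log2FC −0.08 ± 0.10, adjusted p = 0.538). These counts cannot tell less fusion transcript from less intact ATF1 transcript. Of the 9 melanocytic markers that are known in clear cell sarcoma, 8 had over 3 counts in every library, whereas MLANA had 4 and 0 counts in control. The 9 markers summed to 2834 to 3030 CPM in control and 7451 to 11380 CPM after knockdown, before the normalisation used below. By the test described below 8 of 9 rose, beside 21.5% of all genes tested. Of 4 fibroblast markers only 1, LUM, was among the deposited genes. Its normalised level was 0.771 to 1.80 CPM in control and 6.26 to 18.3 CPM after knockdown, and it rose. Of 5 blood and vessel markers 2 were among the deposited genes, LYZ and CDH5, and these summed to 2.86 to 6.97 CPM, again before normalisation. Their part in the results below was not tested, and in bulk RNA fewer cells of a type and less RNA per cell cannot be told apart.

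Apart from the marker sums, levels are given as normalised CPM, replicate 1 before replicate 2. Changes are given as log2 fold change (log2FC ± SE) of knockdown over control, so that a positive value is higher with the EA1 siRNAs. Unless another contrast is named, both EA1 siRNAs were averaged and compared with the control by the quasi-likelihood test of edgeR, with Benjamini-Hochberg adjustment over the 14571 genes that passed the filter, and a gene rose or fell where its adjusted p was under 0.05. Of the 51 members, 50 passed the filter. The exception was ME1, the cytosolic malic enzyme, with between 0 and 6 counts per library.

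The number of members that rose or fell after EA1 knockdown was not the same in the 3 routes, and the difference between routes was not tested. Of the 50 members tested, 16 rose and 6 fell, beside 21.5% of all genes tested that rose and 22.1% that fell, so that the 44% of members called in either direction was close to the 43.5% of all genes. In glycolysis 4 of 20 members rose and 4 fell. In the pentose phosphate pathway 1 of 6 rose and none fell, and by the unadjusted edgeR p under 0.05 or by DESeq2 the number that fell was also 0. In the TCA group 11 of 24 members rose and 2 fell. The median log2FC was −0.07 for glycolysis, 0.05 for the pentose phosphate pathway and 0.30 for the TCA group, and 0.01 for all genes tested. These medians describe the lists, since members of a pathway are not replicates. Irrespective of the test, all 4 knockdown libraries lay above both control libraries for 23 members and below them for 12, beside 28.1% and 27.3% of all genes tested, or 55.4% in either direction. These were 7 above and 8 below in glycolysis, 2 and 2 in the pentose phosphate pathway, and 14 and 2 in the TCA group.

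**Figure D1:**
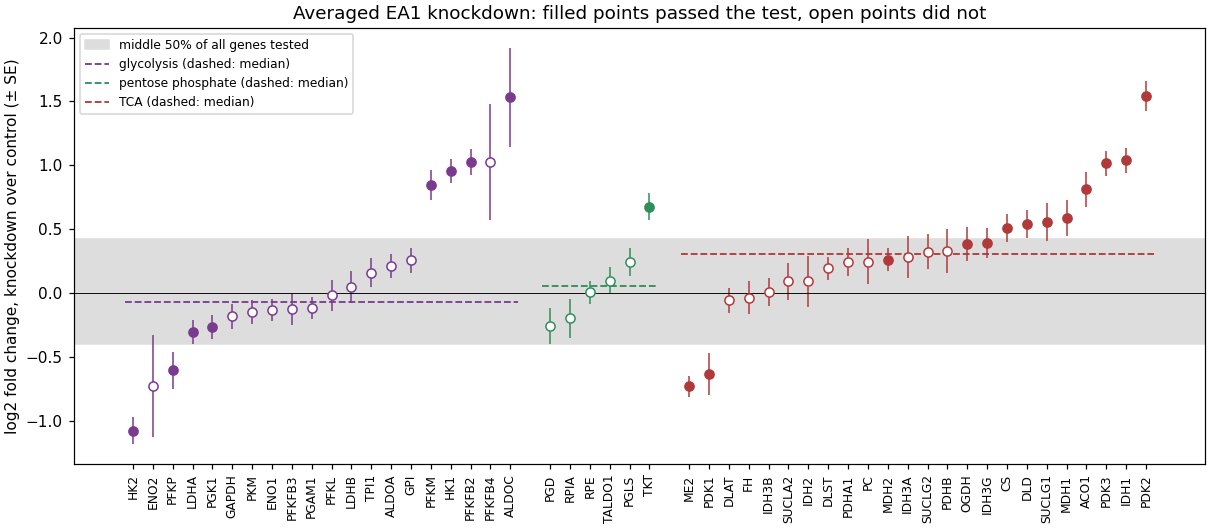
Averaged log2 fold change of EA1 knockdown over control (y axis) for each of the 50 members tested (x axis), by pathway, with bars of ± 1 SE, dashed lines at the pathway medians and a grey band for the middle 50% of all genes tested. Filled points had an adjusted p under 0.05, 4 higher and 4 lower in glycolysis, 1 higher in the pentose phosphate pathway, and 11 higher and 2 lower in the TCA group.

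Before the single members, their levels in control cells are set against each other per kilobase of exon, the scale on which genes of different length can be compared. GAPDH had the highest level of all members, 1271 ± 88.8 CPM per kilobase (SD, n = 2), and it was followed by LDHA at 162 and PGK1 at 158 CPM per kilobase, which did not differ beyond their SDs of 12.99 and 12.26. Transketolase (TKT) led the pentose phosphate pathway at 51.05 ± 2.63 CPM per kilobase and malate dehydrogenase MDH2 led the TCA group at 50.03 ± 1.38 CPM per kilobase, and these leaders did not differ beyond their spread either. These orders below GAPDH hold only for all exons as gene length. The longest transcript has 7286 of 9502 exon bases for TKT and 1231 of 2907 for TALDO1, and as gene length it would put TALDO1 first. It would also put MDH1 (1647 of 4990 bases) before MDH2 (2170 of 3641), and LDHA (2241 of 6026) well above PGK1 (4812 of 5437). The median level was 23.9 CPM per kilobase for glycolysis, 17.3 for the pentose phosphate pathway and 14.1 for the TCA group. The lowest were ALDOC at 0.631 and PFKFB4 at 0.261 CPM per kilobase, and these values rest on few reads.

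In glycolysis as many members rose as fell, and at 2 steps the isoenzymes moved in opposite directions. Hexokinase phosphorylates glucose in the first step and has 2 member genes. HK1 (ENSG00000156515, chr10:69269984-69401884 on hg38), the hexokinase of most tissues, stood at 70.3 and 67.9 CPM with the control siRNA, 131 and 128 CPM with EA1 siRNA 1, and 147 and 131 CPM with EA1 siRNA 2. The 4 knockdown libraries lay close together and all above both control libraries, 1.94-fold higher (log2FC 0.96 ± 0.09, adjusted p = 9.04e-06). HK2 (ENSG00000159399, chr2:74834127-74893359), the isoenzyme that is known as inducible in tumours and muscle, stood at 154 and 131 CPM in control, 59.7 and 67.7 CPM after EA1 siRNA 1 and 65.3 and 77.6 CPM after EA1 siRNA 2. Its 4 knockdown libraries all lay below the controls, 2.11-fold lower (log2FC −1.08 ± 0.10, adjusted p = 9.04e-06). Per kilobase of exon, HK1 made up 28.3% and 30.8% of the summed level of HK1 and HK2 in control and 59.2% to 65.9% after knockdown, so the order of both genes was opposite in the 2 conditions. With the longest transcript in place of all exons as gene length, the HK1 share in control was 40.6%.

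Phosphofructokinase, the committed step, has 3 subunit genes, of which 1 rose, 1 fell and 1 did not pass the test. PFKM, the muscle-type subunit, stood at 129 and 117 CPM with the control siRNA, 207 and 218 CPM with EA1 siRNA 1, and 263 and 199 CPM with EA1 siRNA 2. Every knockdown library was above the controls (log2FC 0.85 ± 0.12, adjusted p = 1.29e-04). PFKP, the platelet-type subunit, stood at 45 and 49.5 CPM in control, 27 and 26.7 CPM after EA1 siRNA 1 and 28.8 and 42.5 CPM after EA1 siRNA 2, with replicate 2 of EA1 siRNA 2 near the control level and the other 3 knockdown libraries well below it. It fell in the average (log2FC −0.61 ± 0.15, adjusted p = 0.00594) and with EA1 siRNA 1 (log2FC −0.82 ± 0.18, adjusted p = 0.00331). With EA1 siRNA 2 the value was log2FC −0.40 ± 0.17, adjusted p = 0.0959, and 0.0399 with the replicate number as a block. Leaving out replicate 2 of the control ended the averaged call (log2FC −0.57, adjusted p = 0.0524). PFKL, the liver-type subunit, was between 43.3 and 54.8 CPM in all 6 libraries and did not pass the test (log2FC −0.02 ± 0.12, adjusted p = 0.91). Per kilobase, the PFKP share of the 3 subunits was 20.2% and 22.7% in control and 8.26% to 14.4% after knockdown, and that of PFKM 57.6% to 62.1% and 72.2% to 80.9%.

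The enzymes of the PFKFB family make and degrade fructose 2,6-bisphosphate, the allosteric activator of phosphofructokinase. PFKFB2, the heart-type enzyme, stood at 50.9 and 46.5 CPM with the control siRNA, 111 and 96.3 CPM with EA1 siRNA 1, and 95.4 and 93.8 CPM with EA1 siRNA 2. The 4 knockdown libraries were about 2 times the controls, and no library overlapped (log2FC 1.02 ± 0.10, adjusted p = 1.04e-05). PFKFB3, the inducible enzyme with high kinase activity, ranged from 31.2 to 39.0 CPM with overlapping groups (log2FC −0.13 ± 0.12, adjusted p = 0.447). PFKFB4 stood at 1.65 and 1.54 CPM in control, 3.13 and 4.61 CPM after EA1 siRNA 1 and 1.78 and 3.65 CPM after EA1 siRNA 2, low in all and uneven between replicates of EA1 siRNA 2 (log2FC 1.03 ± 0.45, adjusted p = 0.0888). For EA1 siRNA 1 alone its adjusted p was 0.0656, and 0.048 with the replicate block (log2FC 1.26). The PFKFB2 share of the 3 genes per kilobase was 40.8% and 44.8% in control and 58.2% to 64.7% after knockdown, whereas PFKFB3 had the larger share in control.

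**Figure D2:**
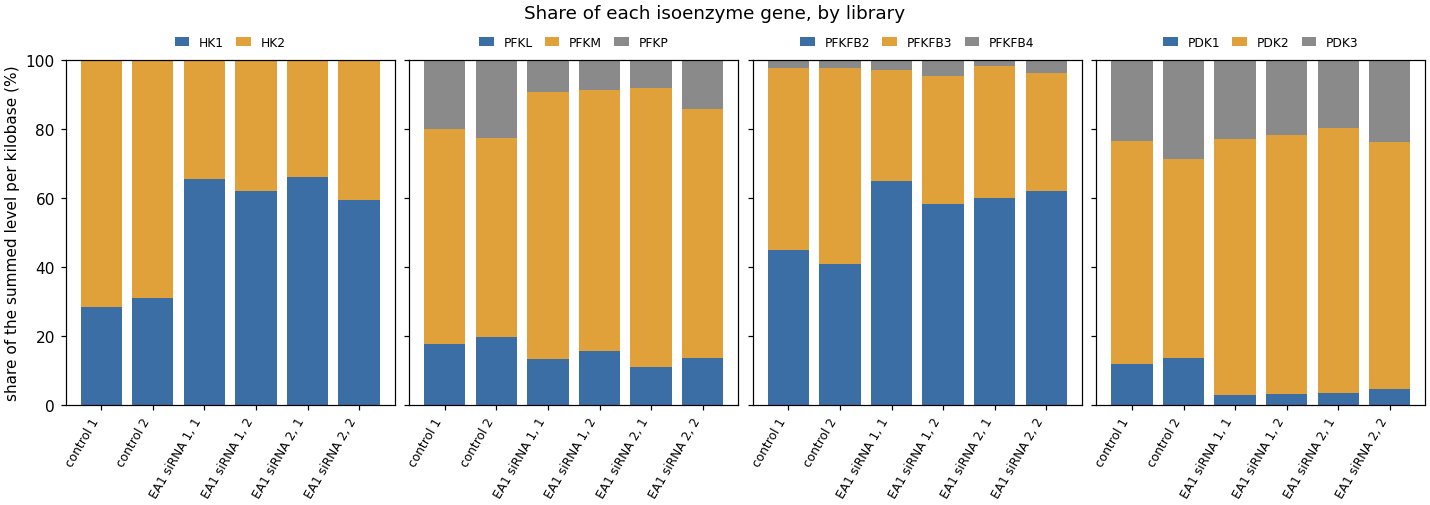
Share of each gene in the summed CPM per kilobase of its isoenzyme group (y axis, percent) in each of the 6 libraries (x axis), for the hexokinases, the phosphofructokinase subunits, the PFKFB enzymes and the pyruvate dehydrogenase kinases. HK1 goes from 28.3% and 30.8% in control to 59.2% to 65.9% in the 4 knockdown libraries, and PDK1 from 11.8% and 13.4% to 2.79% to 4.45%.

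Of the middle steps of glycolysis, 1 of 4 members rose. GPI, which interconverts glucose 6-phosphate and fructose 6-phosphate, stood at 241 and 265 CPM with the control siRNA, 270.3 and 309.6 CPM with EA1 siRNA 1, and 331 and 298 CPM with EA1 siRNA 2. All knockdown libraries were above both controls, but the adjusted p was 0.0511 (log2FC 0.26 ± 0.10), and 0.0299 with the replicate block. With EA1 siRNA 2 alone it rose (log2FC 0.31 ± 0.11, adjusted p = 0.0444). Aldolase A (ALDOA) and triose phosphate isomerase (TPI1) had log2FC of 0.21 ± 0.10 and 0.16 ± 0.11 and did not pass the test. ALDOC, the brain-type aldolase, stood at 1.5 and 1.8 CPM in control, 3.27 and 5.6 CPM after EA1 siRNA 1 and 5.52 and 5.05 CPM after EA1 siRNA 2, so that each library held between 10 and 36 reads of it. It was higher in every knockdown library (log2FC 1.53 ± 0.39, adjusted p = 0.00755), and the call was lost without replicate 1 of the control (log2FC 1.41, adjusted p = 0.0572). ALDOC remained a minor part of both aldolases, 0.896% and 1.05% per kilobase in control and 1.71% to 2.77% after knockdown. The exons of ALDOA share 56.4% of their bases with other genes in the table, and those of RPE, GAPDH and DLAT 13.3% to 23.8%, so their counts are uncertain.

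Downstream of the aldolases, the log2FC of all 6 members, GAPDH, PGK1, PGAM1, ENO1, ENO2 and PKM, was negative, and 1 of them passed the test. GAPDH, the most abundant member, stood at 3195 and 2894 CPM with the control siRNA, 2620.0 and 2702 CPM with EA1 siRNA 1, and 2817 and 2582 CPM with EA1 siRNA 2. All knockdown libraries lay below both controls by a margin smaller than the distance between the control libraries (log2FC −0.18 ± 0.10, adjusted p = 0.162), and without replicate 1 of EA1 siRNA 2 it would be called (log2FC −0.24, adjusted p = 0.0464). PGK1, phosphoglycerate kinase, which makes the first ATP of the route, stood at 906 and 811 CPM in control, 704 and 727 CPM after EA1 siRNA 1 and 754 and 677 CPM after EA1 siRNA 2. The knockdown libraries were all below the controls (log2FC −0.26 ± 0.09, adjusted p = 0.0405). The drop was 1.2-fold, and the call was lost without replicate 1 of the control (−0.18) or without either replicate of EA1 siRNA 1 (−0.25 and −0.30 on the log2 scale), with adjusted p of 0.0554 to 0.329. With EA1 siRNA 1 and EA1 siRNA 2 alone, PGK1 did not pass the test (adjusted p = 0.0775 and 0.083), but did so with the replicate block (0.0428 and 0.0438). ENO2, the neuronal enolase, was the lowest of the 6 per kilobase, and replicate 1 of EA1 siRNA 2 was lowest of the libraries at 1.25 CPM, beside 5.24 and 3.73 CPM in control (log2FC −0.73 ± 0.40, adjusted p = 0.164). ENO1 and PKM, the main enolase and the pyruvate kinase gene, had log2FC of −0.13 ± 0.09 and −0.15 ± 0.09, and neither passed the test.

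Lactate dehydrogenase turns pyruvate into lactate, and LDHA encodes the subunit that dominates in glycolytic tissue. LDHA stood at 919 and 1030.0 CPM with the control siRNA, 779 and 852 CPM with EA1 siRNA 1, and 758 and 768 CPM with EA1 siRNA 2. The 4 knockdown libraries were below both control libraries, by 1.24-fold on average (log2FC −0.31 ± 0.09, adjusted p = 0.0196). The call was lost without replicate 2 of the control (log2FC −0.25, adjusted p = 0.164) or without replicate 1 of EA1 siRNA 1 (log2FC −0.27, adjusted p = 0.0679). Taken with EA1 siRNA 1 alone, LDHA had an adjusted p of 0.0811, and 0.04 with the replicate block. LDHB, the heart-type subunit, ranged from 107 to 153 CPM with overlapping groups (log2FC 0.04 ± 0.12, adjusted p = 0.801). LDHA made up 77.8% and 82.6% of both subunits per kilobase in control and 71.0% to 79.3% after knockdown, which overlap.

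Of the 6 members that fell, HK2, PFKP, PGK1, LDHA and PDK1 hold the letters ACGTG, the core of hypoxia response elements, within 250 bases before to 50 bases after a RefSeq start (GRCh38.p14, either strand), and ME2 does not. The stretches that hold them in the glycolytic members are shown because these are the genes of the route that fell. Capitals mark ACGTG read on either strand, including both reads of CACGTG, and in LDHA also TGACGTCA, the textbook site of the ATF and CREB family to which ATF1 belongs. Each is written 5′ to 3′ on the plus strand, on which all 4 genes lie.
HK2 (chr2:74834956-74835046, 214 to 124 bases before the start): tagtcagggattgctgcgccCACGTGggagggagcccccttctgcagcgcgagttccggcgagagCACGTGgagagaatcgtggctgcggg
PFKP (chr10:3069030-3069074, 159 to 115 bases before the start): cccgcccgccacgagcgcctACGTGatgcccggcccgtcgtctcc
PGK1 (chrX:78104026-78104089, 222 to 159 bases before the start): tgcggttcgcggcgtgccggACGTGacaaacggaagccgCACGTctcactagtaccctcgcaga
LDHA (chr11:18394456-18394539, 107 to 24 bases before the start): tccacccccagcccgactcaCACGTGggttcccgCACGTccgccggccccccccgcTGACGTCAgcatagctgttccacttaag
In GENCODE the first 3 stretches are intronic, since longer transcripts of these genes start upstream, and that of LDHA lies before the gene. Promoters were matched for 49 of 51 members. ACGTG was found in 21 of these 49 members (42.9%), in 5 of the 6 that fell and in 6 of the 14 matched members that rose, and in 24.9% of all 27305 genes with a promoter. Counted by promoter, it was in 32.1% of 78 member promoters and 21.4% of all 35116. TGACGTCA was found in 1 member, LDHA (2.04%), and in 2.25% of all genes (1.85% of all promoters). The looser TGANNTCA, which includes it, was in HK1, LDHA and MDH2 (6.12% of members) and in 13.7% of all genes (11.5% of promoters), and the AP1 site TGAGTCA was in ENO2, HK1 and ME1 (6.12%) and in 6.05% of all genes (4.95% of promoters). GCGTG, the other form of the hypoxia core, was in 31 members (63.3%) and in 40.6% of all genes (36.5% of promoters). These matches describe letters in a window and say nothing of binding.

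In the pentose phosphate pathway a single member passed the test. TKT (ENSG00000163931, chr3:53224712-53256052), the transketolase of the non-oxidative arm, which moves carbon between pentoses and glycolytic intermediates, stood at 467 and 503 CPM with the control siRNA, 624 and 750.5 CPM with EA1 siRNA 1, and 910.0 and 837 CPM with EA1 siRNA 2. All 4 knockdown libraries were above both controls, and those of EA1 siRNA 2 were above those of EA1 siRNA 1 (log2FC 0.68 ± 0.10, adjusted p = 2.99e-04). The difference between both EA1 siRNAs did not pass the test (log2FC of EA1 siRNA 2 over EA1 siRNA 1 0.35 ± 0.12, adjusted p = 0.163). In the contrast of EA1 siRNA 1 alone, TKT lost its call without replicate 1 of the control or without replicate 2 of EA1 siRNA 1, which left 0 of 6 members called. PGLS and PGD, of the oxidative arm, had log2FC of 0.24 ± 0.11 and −0.26 ± 0.14 in opposite directions. TALDO1, the transaldolase, and the isomerases RPIA and RPE had log2FC between −0.20 and 0.10, and none of these 5 genes passed the test.

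In the TCA group, the kinases that phosphorylate and switch off pyruvate dehydrogenase moved in both directions. PDK2 (ENSG00000005882, chr17:50094737-50112152), a widely expressed kinase, stood at 41.3 and 36 CPM with the control siRNA, 116 and 120.4 CPM with EA1 siRNA 1, and 118 and 96.6 CPM with EA1 siRNA 2. The knockdown libraries were 2.91-fold above the controls with no overlap, the highest averaged log2FC of all members, close to that of ALDOC (log2FC 1.54 ± 0.12, adjusted p = 1.37e-06). PDK3 stood at 48.2 and 56.8 CPM in control, 114 and 112 CPM after EA1 siRNA 1 and 97 and 102 CPM after EA1 siRNA 2. It too was above both controls in every knockdown library (log2FC 1.01 ± 0.10, adjusted p = 1.02e-05). PDK1, the kinase known as a hypoxia target, stood at 20.5 and 22.6 CPM with the control siRNA, 11.8 and 14 CPM with EA1 siRNA 1, and 13.5 and 16.3 CPM with EA1 siRNA 2. Here the 4 knockdown libraries were below the controls (log2FC −0.64 ± 0.16, adjusted p = 0.00796), and the call was lost without replicate 2 of the control (log2FC −0.60, adjusted p = 0.0666). With EA1 siRNA 2 alone the adjusted p was 0.0505, and 0.0273 with the replicate block. Per kilobase, the PDK1 share of the 3 kinases was 11.8% and 13.4% in control and 2.79% to 4.45% after knockdown, and with the longest transcript as gene length the mean share in control was 8.95%.

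Among the subunits of pyruvate dehydrogenase, DLD, the E3 subunit that is shared with other 2-oxoacid dehydrogenases, stood at 120.3 and 114 CPM in control, 157 and 155 CPM after EA1 siRNA 1 and 209 and 163 CPM after EA1 siRNA 2. It rose in every knockdown library, and replicate 1 of EA1 siRNA 2 was above the other 3 (log2FC 0.54 ± 0.11, adjusted p = 0.00173). PDHA1 and PDHB, the E1 subunits, and DLAT, the E2 subunit, had log2FC of 0.24 ± 0.11, 0.33 ± 0.17 and −0.06 ± 0.10 and did not pass the test in the average. With EA1 siRNA 2 alone PDHA1 rose (log2FC 0.39 ± 0.12, adjusted p = 0.0286).

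Within the mitochondrial cycle 5 of 12 members rose and none fell, beside 21.5% and 22.1% of all genes tested. A positive log2FC was found for 11 of 12, beside 7415 of all 14571 genes tested. With EA1 siRNA 1 alone 2 of the 12 rose and 9 had a positive log2FC. With EA1 siRNA 2 alone 7 rose and all 12 had a positive log2FC. Citrate synthase (CS), the entry step, stood at 239.6 and 256 CPM with the control siRNA, 316 and 338 CPM with EA1 siRNA 1, and 425 and 336 CPM with EA1 siRNA 2. No knockdown library overlapped the controls (log2FC 0.51 ± 0.11, adjusted p = 0.00241). SUCLG1, the shared subunit of succinyl-CoA ligase, stood at 82.3 and 87 CPM in control, 116 and 103 CPM after EA1 siRNA 1 and 171 and 111 CPM after EA1 siRNA 2, with replicate 1 of EA1 siRNA 2 far above the other 3 knockdown libraries (log2FC 0.55 ± 0.15, adjusted p = 0.0104). With EA1 siRNA 1 alone the adjusted p of SUCLG1 was 0.103, and 0.0457 with the replicate block, and the averaged call was lost without either control library (log2FC 0.51 and 0.56, adjusted p = 0.0807 and 0.0573).

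IDH3G, OGDH and MDH2 rose by less. IDH3G, a regulatory subunit of the NAD-dependent isocitrate dehydrogenase, stood at 43.3 and 46.7 CPM with the control siRNA, 53.5 and 54.2 CPM with EA1 siRNA 1, and 72.1 and 57.1 CPM with EA1 siRNA 2 (log2FC 0.39 ± 0.12, adjusted p = 0.0187). OGDH, the E1 subunit of 2-oxoglutarate dehydrogenase, stood at 184 and 216 CPM in control, 217 and 242 CPM after EA1 siRNA 1 and 351 and 245 CPM after EA1 siRNA 2, and its lowest knockdown library was barely above the higher control (log2FC 0.38 ± 0.14, adjusted p = 0.0384). MDH2, which regenerates oxaloacetate, stood at 179 and 186 CPM with the control siRNA, 197 and 208 CPM with EA1 siRNA 1, and 253 and 218 CPM with EA1 siRNA 2 (log2FC 0.26 ± 0.09, adjusted p = 0.0384). All 3 had replicate 1 of EA1 siRNA 2 as their highest library, and all 3 calls were lost in several fits. IDH3G and OGDH lost theirs without either control library, without replicate 1 of EA1 siRNA 2 or without replicate 2 of EA1 siRNA 1 (log2FC 0.28 to 0.41 and 0.22 to 0.47, adjusted p = 0.0524 to 0.14 and 0.0679 to 0.279), and MDH2 without each library other than replicate 2 of EA1 siRNA 2 (log2FC 0.18 to 0.28, adjusted p = 0.0643 to 0.216). MDH2 was also not called with RLE size factors (adjusted p = 0.0504), and MDH2 and IDH3G not by DESeq2 (adjusted p = 0.0847 and 0.0675).

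The other mitochondrial members, IDH2, IDH3A, IDH3B, DLST, SUCLA2, SUCLG2 and FH, had averaged log2FC between −0.04 and 0.32 and did not pass the test. With EA1 siRNA 1 alone DLST, the E2 subunit of 2-oxoglutarate dehydrogenase, rose (log2FC 0.30 ± 0.10, adjusted p = 0.0377). With EA1 siRNA 2 alone IDH3A and SUCLG2 rose (log2FC 0.52 ± 0.19, adjusted p = 0.049 and log2FC 0.44 ± 0.16, adjusted p = 0.0446). IDH3A was at 299 CPM in replicate 1 of EA1 siRNA 2 and between 158 and 176 CPM in the other 5 libraries.

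In the average all 3 cytosolic counterparts of cycle enzymes rose, beside 21.5% of all genes tested. Only 2 of them rose with EA1 siRNA 1 alone, beside 19.9% of all genes tested. IDH1 (ENSG00000138413, chr2:208236229-208266074), the cytosolic isocitrate dehydrogenase that makes NADPH, stood at 130.4 and 128 CPM with the control siRNA, 217 and 243 CPM with EA1 siRNA 1, and 329 and 283 CPM with EA1 siRNA 2. The groups lay in 3 separate steps, control lowest and EA1 siRNA 2 highest, and the averaged change was 2.05-fold (log2FC 1.04 ± 0.10, adjusted p = 8.03e-06). ACO1, the cytosolic aconitase that doubles as an iron-responsive RNA-binding protein, stood at 19.5 and 18.4 CPM in control, 33.1 and 34.1 CPM after EA1 siRNA 1 and 30.3 and 35.2 CPM after EA1 siRNA 2. Its 4 knockdown libraries lay together above the controls (log2FC 0.81 ± 0.14, adjusted p = 5.79e-04). MDH1, the cytosolic malate dehydrogenase, stood at 169 and 154 CPM with the control siRNA, 193 and 203 CPM with EA1 siRNA 1, and 357 and 237 CPM with EA1 siRNA 2. Replicate 1 of EA1 siRNA 2 stood well above the other knockdown libraries, which were all above the controls (log2FC 0.58 ± 0.14, adjusted p = 0.00547). The averaged call of MDH1 was lost without replicate 2 of the control (log2FC 0.49, adjusted p = 0.0736). MDH1 did not pass the test with EA1 siRNA 1 alone (log2FC 0.29 ± 0.16, adjusted p = 0.168).

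Of the enzymes that carry pyruvate into and malate out of the cycle, ME2 (ENSG00000082212), the mitochondrial malic enzyme, fell. It stood at 147 and 140.5 CPM with the control siRNA, 81.9 and 81.7 CPM with EA1 siRNA 1, and 91.1 and 92.8 CPM with EA1 siRNA 2. The controls and the knockdown libraries formed separate tight groups, 1.66-fold apart (log2FC −0.73 ± 0.08, adjusted p = 2.60e-05). Pyruvate carboxylase (PC) was at 36.9 CPM in replicate 1 of EA1 siRNA 2 and between 20.9 and 25.9 CPM in the other libraries, and did not pass the test (log2FC 0.25 ± 0.17, adjusted p = 0.283).

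**Figure D3:**
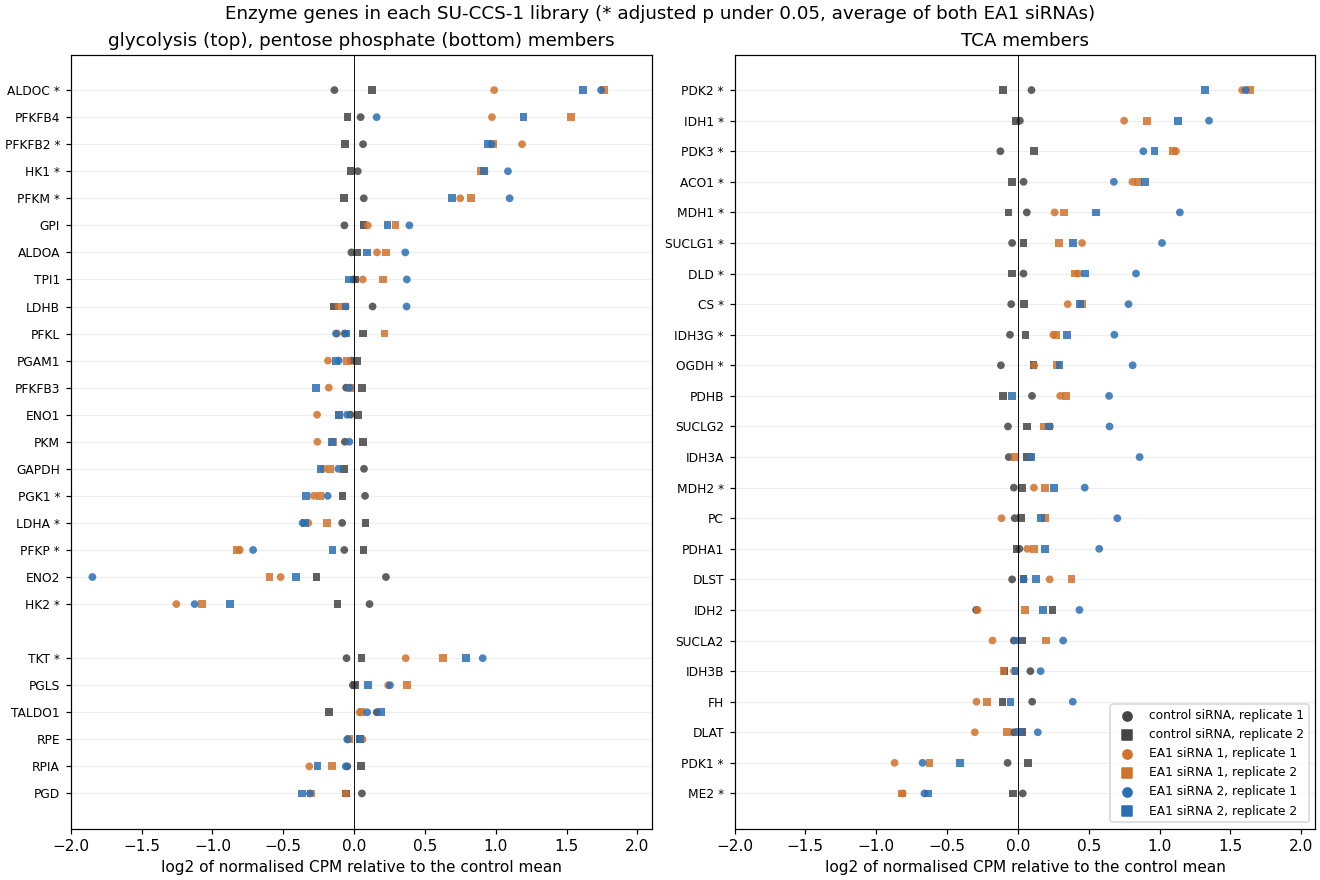
Log2 of normalised CPM relative to the control mean (x axis) for each member tested (y axis, ordered by averaged change within its pathway) in each of the 6 libraries, with grey for control, orange for EA1 siRNA 1 and blue for EA1 siRNA 2. A star marks an adjusted p under 0.05 in the averaged contrast. Replicate 1 of EA1 siRNA 2 (blue circles, squares being replicate 2) is the highest library for 18 of 24 TCA members.

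Each route was also summed over its members. The glycolysis members summed to 7863 and 7647 CPM in control, 6906 and 7296 CPM with EA1 siRNA 1, and 7600 and 6934 CPM with EA1 siRNA 2. All 4 knockdown sums were below both controls, at a ratio of the means of 0.926. GAPDH made up 39.3% of the control sum, and without it the ratio was 0.956 and the groups overlapped. The pentose phosphate sum was 749 and 763 CPM in control, 903 and 1028 CPM with EA1 siRNA 1, and 1187 and 1120.0 CPM with EA1 siRNA 2. This was 1.4 times higher after knockdown, but TKT held 64.2% of the control sum and without TKT the ratio was 1.03, with overlapping groups. The TCA sum was 2105 and 2155 CPM in control, 2518 and 2634 CPM with EA1 siRNA 1, and 3489 and 2721 CPM with EA1 siRNA 2. It was 1.33 times higher after knockdown, and 1.32 times without CS, its largest contributor, at 11.6% of the control sum. So the pentose phosphate difference rested on a single gene and the TCA difference did not rest on its leading gene. The TCA sum also holds the kinases PDK2 and PDK3 and the cytosolic IDH1, ACO1 and MDH1, which rose. The part of these in its ratio was not tested.

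**Figure D4:**
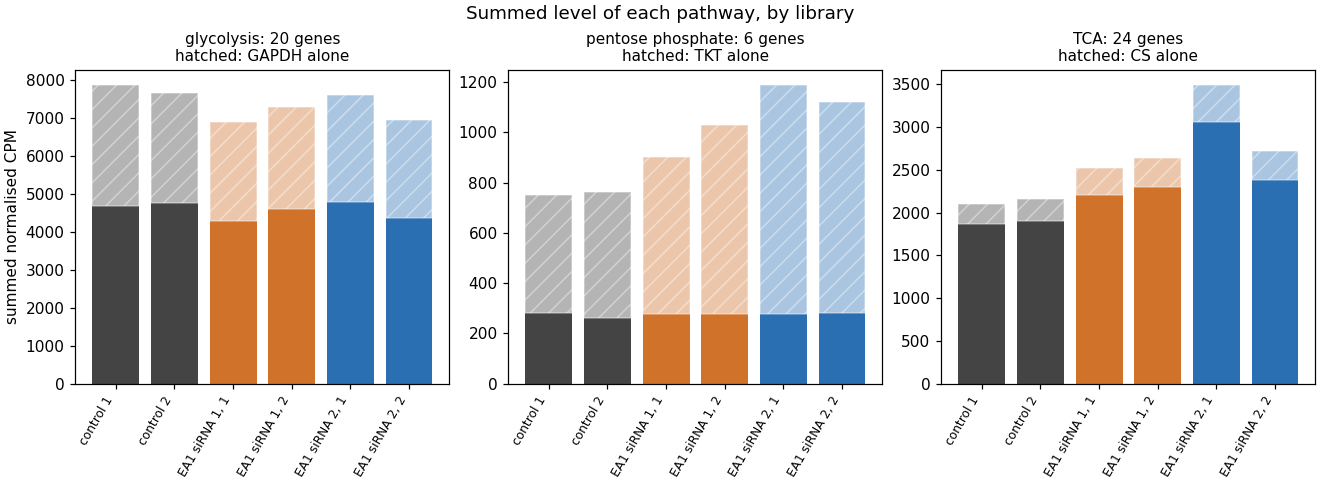
Summed normalised CPM of each pathway (y axis, from 0, with its own scale per panel) in each of the 6 libraries (x axis), with the hatched part for the leading gene alone, GAPDH, TKT or CS. The glycolysis sum is 6906 to 7600 CPM after knockdown and 7647 to 7863 CPM in control, the pentose phosphate sum follows TKT, and the TCA sum is highest in replicate 1 of EA1 siRNA 2 at 3489 CPM.

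A single library was the highest for most TCA members. Replicate 1 of EA1 siRNA 2 was the highest of the 6 libraries for 18 of 24 TCA members (75%), beside 6 of 20 glycolysis members (30%), 1 of 6 pentose phosphate members (16.7%) and 19.8% of all genes tested. Relative to the control mean, the median TCA member was 0.66 higher in it on the log2 scale and 0.17 to 0.23 higher in the other 3 knockdown libraries. This library had the fewest counts, 5942808, and the highest melanocytic sum, 11380 CPM before normalisation, and the part of these in the result was not tested. Without it, 8 TCA members rose in the average in place of 11, and 2 fell. The number that rose was also 7 without replicate 1 and 6 without replicate 2 of the control, 10 and 8 without replicates 1 and 2 of EA1 siRNA 1, and 15 without replicate 2 of EA1 siRNA 2. The glycolysis counts ran from 3 to 7 that rose and from 2 to 5 that fell when each library was left out, with 7 that rose without replicate 2 of EA1 siRNA 2 and 2 that fell without replicate 2 of the control or replicate 1 of EA1 siRNA 1. Without replicate 2 of the control, 3 members fell in all in place of 6, of which 1 was in the TCA group.

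With each EA1 siRNA taken alone, against the same 2 control libraries, the values were as follows. After EA1 siRNA 1, 12 members rose and 4 fell, beside 19.9% and 20.3% of all genes tested (40.1% in either direction), and by pathway these were 4 and 2 in glycolysis, 1 and 0 in the pentose phosphate pathway and 7 and 2 in the TCA group. After EA1 siRNA 2, 20 members rose and 3 fell, beside 18.5% and 18.2% of all genes (36.7% in either direction), and by pathway these were 5 and 2, 1 and 0, and 14 and 1. With the replicate block, 6 members fell with EA1 siRNA 2, where PFKP, PGK1 and PDK1 were added, and 4 glycolysis members fell with either EA1 siRNA. For EA1 siRNA 1 the median TCA log2FC was 0.20 and for EA1 siRNA 2 it was 0.44, that of glycolysis −0.09 and −0.09, and that of the pentose phosphate pathway 0.03 and 0.07. The number that rose with EA1 siRNA 1 was 7 without replicate 1 of the control or replicate 2 of EA1 siRNA 1, and with EA1 siRNA 2 it was 12 without replicate 1 of the control and 13 without replicate 1 of EA1 siRNA 2, where 8 TCA members rose and the TCA median was 0.18. By pathway, the TCA members that rose with EA1 siRNA 1 were 4 in place of 7 when any 1 of the 4 libraries compared was left out, and 9 without either replicate of EA1 siRNA 2, where 4 glycolysis members fell in place of 2. For EA1 siRNA 2, 3 glycolysis and 8 TCA members rose without replicate 1 of the control, 1 glycolysis member fell without replicate 2 of the control, and 8 glycolysis members rose and 4 fell without replicate 2 of EA1 siRNA 2, where 6 members fell in all. The TCA members that fell numbered 1 or 2 in each of these fits.

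Compared with each other, EA1 siRNA 2 and EA1 siRNA 1 gave 0 members past the threshold by edgeR, beside 2.24% of all genes tested (1.44% higher and 0.796% lower with EA1 siRNA 2), while 9 members had an unadjusted p under 0.05, all higher with EA1 siRNA 2 and 7 of them in the TCA group, and DESeq2 called 2. The replicate block called 2, IDH1 (log2FC 0.41, adjusted p = 0.0318, against 0.0792 without the block) and MDH1 (log2FC 0.56, adjusted p = 0.0199, against 0.0857). These differences also depended on the replicates of EA1 siRNA 2, since 1 member was called without its replicate 1 and 8 without its replicate 2. The median difference was 0.24 for the TCA group, 0.04 for glycolysis and 0.03 for the pentose phosphate pathway, beside 0.01 for all genes.

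Genes next to these enzymes were described from lists of transporters, neighbouring enzymes, regulators and hypoxia-induced genes. Of 13 other glycolysis genes tested, 2 rose and 6 fell (61.5% in either direction, beside 43.5% of all genes tested). The glucose transporter SLC2A3 (GLUT3) stood at 244 and 226 CPM with the control siRNA, 36.7 and 44.3 CPM with EA1 siRNA 1, and 19.8 and 33.3 CPM with EA1 siRNA 2. All knockdown libraries were far below the controls, 7.12-fold in the average (log2FC −2.83 ± 0.14, adjusted p = 9.04e-08). SLC2A1 (GLUT1) also fell, from 17.1 and 22.5 CPM to between 7.41 and 13.6 CPM (log2FC −1.02 ± 0.22, adjusted p = 0.0027). The lactate exporter SLC16A3 (MCT4) fell from 45.5 and 79.7 CPM to between 8.37 and 28.8 CPM (log2FC −1.71 ± 0.29, adjusted p = 6.08e-04), and SLC16A1 (MCT1) fell with groups that did not overlap (log2FC −0.30 ± 0.10, adjusted p = 0.0352). PGM1, phosphoglucomutase, which links glycogen to glucose 6-phosphate, rose in every knockdown library (log2FC 1.17 ± 0.12, adjusted p = 1.21e-05). HKDC1, a hexokinase-like gene, held 1 and 0 counts in control, 14 and 8 counts after EA1 siRNA 1 and 34 and 5 counts after EA1 siRNA 2. Most of its reads came from replicate 1 of EA1 siRNA 2, and with so few counts in control no fold is given.

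Of 8 other pentose phosphate genes tested, 2 rose and 3 fell (62.5% in either direction, beside 43.5% of all genes tested). DERA, deoxyribose phosphate aldolase, rose (log2FC 1.04 ± 0.15, adjusted p = 1.72e-04). PRPS2, which makes phosphoribosyl pyrophosphate from ribose 5-phosphate, fell from 67.7 and 71.2 CPM to between 29.2 and 40.0 CPM (log2FC −1.005 ± 0.11, adjusted p = 2.50e-05). TKTL1, a relative of TKT, fell too, from 3.29 and 2.83 CPM to between 0.165 and 1.07 CPM (log2FC −1.99 ± 0.53, adjusted p = 0.00926), opposite to TKT in direction and on few reads.

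Of 29 other TCA genes tested, 8 rose and 5 fell. This was 44.8% in either direction, close to the 43.5% of all genes tested. PDK4, the remaining pyruvate dehydrogenase kinase, was at 0.299 and 0.643 CPM in control and between 2.67 and 5.93 CPM after knockdown (log2FC 3.07 ± 0.49, adjusted p = 3.92e-04). The control libraries held 2 and 5 counts of it, near the floor of 3 counts, so the size of this change is uncertain. By the test PDK2, PDK3 and PDK4 rose and PDK1 fell. OGDHL, a relative of OGDH, rose (log2FC 1.34 ± 0.21, adjusted p = 3.51e-04). Succinate dehydrogenase, the step shared with the respiratory chain, has 4 subunits, of which SDHC and SDHD rose (log2FC 0.44 ± 0.15, adjusted p = 0.0288 and log2FC 0.45 ± 0.14, adjusted p = 0.0258), whereas SDHA and SDHB had log2FC of 0.18 ± 0.10 and 0.22 ± 0.12 and did not pass the test. The mitochondrial dicarboxylate carrier SLC25A10 fell (log2FC −1.16 ± 0.17, adjusted p = 2.02e-04). PCK1, the cytosolic phosphoenolpyruvate carboxykinase of gluconeogenesis, stood at 24.2 and 19.7 CPM with the control siRNA, 0.284 and 0 CPM with EA1 siRNA 1, and 1.07 and 0.983 CPM with EA1 siRNA 2. The libraries of EA1 siRNA 1 held 2 and 0 counts of it, so no fold is given for it.

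**Figure D5:**
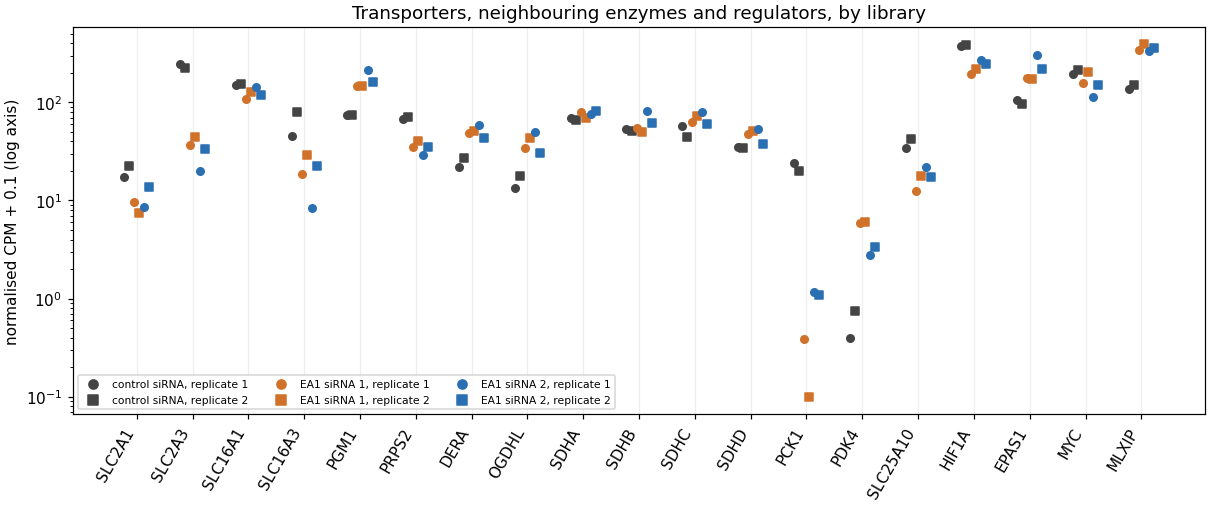
Normalised CPM plus 0.1 on a log axis (y axis) of transporters, neighbouring enzymes and regulators (x axis) in each of the 6 libraries, grey for control, orange for EA1 siRNA 1 and blue for EA1 siRNA 2. SLC2A3 is at 226 to 244 CPM in control and 19.8 to 44.3 CPM after knockdown, and PCK1 at 19.7 to 24.2 CPM and 0 to 1.07 CPM.

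Among 11 regulators of these routes, 4 rose and 5 fell (81.8% in either direction, beside 43.5% of all genes tested). HIF1A, the hypoxia factor, stood at 378 and 385 CPM with the control siRNA, 197 and 220.2 CPM with EA1 siRNA 1, and 268 and 245 CPM with EA1 siRNA 2, with all knockdown libraries below both controls (log2FC −0.72 ± 0.09, adjusted p = 4.31e-05). EPAS1, which encodes the related HIF2A, stood at 106 and 95.9 CPM in control, 175 and 172 CPM after EA1 siRNA 1 and 303 and 217 CPM after EA1 siRNA 2 and rose (log2FC 1.07 ± 0.13, adjusted p = 4.56e-05). MYC fell in the average (log2FC −0.39 ± 0.13, adjusted p = 0.0244), with control libraries at 193 and 212 CPM and knockdown libraries between 114 and 203 CPM, which overlap. MLXIP, a glucose-sensing partner of MLX, rose (log2FC 1.31 ± 0.10, adjusted p = 1.56e-06). Of 10 other hypoxia-induced genes tested, 7 rose and 2 fell (90% in either direction, beside 43.5% of all genes tested). NDRG1, ADM, EGLN3, ANKRD37 and DDIT4 had the largest increases, from 1.30 for DDIT4 to 2.03 for NDRG1 on the log2 scale. The genes that fell were VEGFA, the vascular growth factor, from 20.9 and 26.4 CPM to between 12.2 and 15.8 CPM (log2FC −0.76 ± 0.17, adjusted p = 0.00359), and BNIP3, a mitophagy receptor, from 54.2 and 49.9 CPM to between 28.7 and 50.3 CPM, which overlap (log2FC −0.43 ± 0.13, adjusted p = 0.0196). HK2, PGK1, LDHA, PDK1, SLC2A1 and SLC2A3, which are known as hypoxia targets as well, also fell, but they are listed here by direction. Of other members known as such targets, ALDOC rose (log2FC 1.53 ± 0.39, adjusted p = 0.00755). PFKFB3, PFKFB4, ALDOA and ENO1 did not pass the test. The median log2FC of the 10 other hypoxia-induced genes was 1.10, beside 0.01 for all genes tested.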

How the data were processed

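SU-CCS-1 RNA-seq libraries (2 control siRNA, 2 EA1 siRNA 1 and 2 EA1 siRNA 2) were grouped by their titles. The authors prepared stranded mRNA libraries with paired reads of 50 bases, aligned them to hg38, counted reads per gene with featureCounts 1.6.3 and deposited raw counts of 18118 genes, neither normalised nor pooled. The annotation and the strand setting are not given in the sources used here, and 16 members have exons that overlap other genes of the table, so reads of those genes may be shared. Processed pseudogenes named after members held at most 0.94% of a member's counts.

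Low genes were removed with filterByExpr of edgeR 4.0.16 (R 4.3.3), set to a minimum count of 10 and a minimum total of 15, and 14571 genes remained. Libraries were scaled by TMM and fitted together as 3 conditions, and contrasts were tested with the quasi-likelihood F test of edgeR. Benjamini-Hochberg adjustment of the p-values covered all genes tested, with a threshold of 0.05. Standard errors were derived from the F statistic, and the common biological coefficient of variation was 0.109. The fit was tested on simulated counts with the same spread for all genes and changes of 1 or 2 in size on the log2 scale. It recovered 89 of 90 and 110 of 110 changed genes, and 3.4% of 206 calls were false. Smaller changes, such as many of those reported here, were not simulated. Floors of 3 counts and standard errors cover counting error and the spread of these libraries only. Gene lengths are the union of GENCODE exons on hg38, and promoters are RefSeq's on GRCh38.p14.

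Replicate numbers come from the labels. After subtracting each condition's mean, same-numbered libraries had a correlation across genes of 0.13 (control with EA1 siRNA 1), 0.199 (control with EA1 siRNA 2) and 0.144 (the EA1 siRNAs), and the numbers were taken as pairs in a fit with the replicate block.

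The alternatives were that block, RLE size factors, an unfiltered table, a minimum of 10 counts per gene in each library, each library left out, DESeq2 1.42.0 over 6 libraries or those compared, the 4 knockdown libraries as 1 condition, and the longest transcript as gene length. Members and gene lists were chosen with earlier results of these data known. Values per library are given for members called in the averaged contrast whose control and knockdown libraries did not overlap, for members called between the EA1 siRNAs and for the most abundant member of each pathway. Neighbouring genes are named where called with a log2FC of at least 1 in size, or for a role next to a member.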

Additional observations from a re-analysis of the deposited data

Results flagged for a closer look

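The EA1 siRNAs differed from each other past the threshold (edgeR with Benjamini-Hochberg adjustment over all genes tested) for 3 of 71 genes of the neighbouring lists and for no member, in the fit without the replicate block. In that fit 2.24% of all genes tested differed. MPC1, a subunit of the carrier that brings pyruvate into mitochondria, stood at 248 and 241 CPM with the control siRNA, 112 and 102 CPM with EA1 siRNA 1, and 209 and 224 CPM with EA1 siRNA 2, so that both libraries of EA1 siRNA 1 were well below the other 4, and EA1 siRNA 2 over EA1 siRNA 1 gave a log2FC of 1.01 ± 0.10 (adjusted p = 0.00108). PPARGC1B, a coactivator of mitochondrial genes, showed the same order at 24.1 and 28.5 CPM in control, 14.2 and 13.5 CPM after EA1 siRNA 1 and 23.9 and 25 CPM after EA1 siRNA 2, with a log2FC of 0.82 ± 0.18 between the EA1 siRNAs (adjusted p = 0.0383). TXNIP, a glucose-responsive inhibitor of glucose uptake, stood at 122 and 120.1 CPM with the control siRNA, 96.6 and 105 CPM with EA1 siRNA 1, and 51.3 and 74.7 CPM with EA1 siRNA 2 and was lower with EA1 siRNA 2 than with EA1 siRNA 1 (log2FC −0.67 ± 0.15, adjusted p = 0.0442). With the replicate block, 9 genes of these lists differed between the EA1 siRNAs, those 3 and 6 more. SDHB and EPAS1 were higher with EA1 siRNA 2 (log2FC 0.44 and 0.56, adjusted p = 0.0457 and 0.00913 with the block, 0.137 and 0.0611 without), and ENO3, SLC16A3, PDP1 and MYC were lower (log2FC −1.84, −0.67, −0.54 and −0.45, adjusted p = 0.0313, 0.0493, 0.0128 and 0.0175 with the block, 0.0929, 0.501, 0.0914 and 0.158 without). The members IDH1 and MDH1 passed with the block too. With 2 libraries per group, no library was tested for lying apart from its group.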

How the results depend on the processing

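No alternative turned the direction of a called value. Among the alternative values for the counts over all members, the averaged counts per pathway, the averaged medians and the control shares, 179 stayed within 1.5 times (counts) or 1 SD (medians and shares) of the reported value and 26 did not. The replicate block raised the members that fell with EA1 siRNA 2 from 3 to 6 and those higher with EA1 siRNA 2 than with EA1 siRNA 1 from 0 to 2, where DESeq2 gave 2 over 6 libraries and 1 over the libraries compared. The calls it added are given in the report, and it changed no other member's call and no averaged call of the 71 neighbouring genes tested. With the longest transcript as gene length, the control shares were 40.6% for HK1, 13.9% for PFKL, 84.9% for LDHA and 8.95% for PDK1, against 29.5%, 18.7%, 80.2% and 12.6%. When each library was left out in turn, the averaged contrast gave 3 to 7 members that fell, 3 to 7 glycolysis members that rose and 2 to 5 that fell, 6 to 15 TCA members that rose and 1 to 2 that fell, a glycolysis median log2FC of −0.15 to −0.025 and a pentose phosphate median of −0.042 to 0.10, which changed sign without replicate 2 of the control or of EA1 siRNA 2. EA1 siRNA 1 gave 7 to 14 members that rose, EA1 siRNA 2 gave 12 to 25 that rose and 2 to 6 that fell, and 0 to 8 members were higher with EA1 siRNA 2 than with EA1 siRNA 1. The cause was not tested, other than that fewer libraries enter these fits, and a lone library is assumed to vary like the other conditions. Depth limits ALDOC, PFKFB4 and ENO2 most, with 7 to 36 counts per library.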
